A study of Drosophila melanogaster with 6 samples.

Results

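The glutathione transferase family of Drosophila melanogaster was followed across 6 RNA libraries of adult flies. Its members were all genes whose symbol is Gst followed by a class letter (D, E, T, S, O or Z) and a number, which gave 35 of the 17609 genes in the tables. By class these were 11 delta (D), 14 epsilon (E), 4 theta (T), 1 sigma (S), 3 omega (O) and 2 zeta (Z) genes. The symbol rule uses no expression value, although the family was chosen with earlier results of these data known.

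Glutathione transferases join the tripeptide glutathione to electrophilic compounds, which makes insecticides, plant toxins and products of lipid peroxidation more soluble and easier to export. The delta and epsilon classes are the insect classes best known for detoxification and insecticide resistance, while the other classes also occur in vertebrates. In flies the transcription factor CncC, held back by Keap1, switches on many of these genes under oxidative or chemical stress, and a reporter built on GstD1 is a standard readout of that response. The gut meets dietary toxins first, the fat body is the main site of metabolism, and flight muscle has a high respiratory rate.

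The study compared flies with the genotype Act88F>FoxoRNAi, in which the Act88F-Gal4 driver expressed a hairpin against the transcription factor foxo, with Act88F>W1118 flies, in which that driver was crossed to w1118 and no hairpin was present. Both genotypes therefore carried the driver, whose promoter is known for activity in indirect flight muscle. The flies were 10 days old. RNA came from whole thorax (labelled as skeletal muscle), from gut, and from carcass without eggs and intestine (labelled as fat body), with 1 library for each genotype and tissue, and the sources used here do not say how many flies each library pooled.

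The libraries held between 13274574 and 34385727 counted reads, the largest number in the foxo RNAi thorax. Between 25024 and 83085 of these belonged to the family, and each count is taken as 1 read. These sums exceed the number of reads per library that the design text states, for which the sources used here give no reason. Markers of the dissected tissue were present in each: the summed level of 11 flight muscle genes was 43050 counts per 1000000 counted reads (CPM) in control thorax and 35220 CPM in foxo RNAi thorax, against 605 to 2854 CPM elsewhere. The foxo gene itself had ratios of 0.717 in thorax, 0.783 in gut and 0.764 in carcass, none of which reached 2-fold. Some libraries also stood apart in markers of other tissues. The summed level of 10 gut genes was 70.7 CPM in control thorax and 884 CPM in foxo RNAi thorax, and 298 and 77.3 CPM in the respective carcass libraries. The photoreceptor gene ninaE had 11546 reads in control carcass and 22 in foxo RNAi carcass. These values are set beside the results they move with. In dissected tissue, fewer cells of a type and less RNA per cell cannot be told apart.

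The 3 tissues differed first in how much of the family they held. The family took 0.320% of counted reads in control thorax (exact Clopper-Pearson 95% interval 0.318 to 0.323%), 0.237% in control gut (0.235 to 0.240%) and 0.227% in control carcass (0.225 to 0.230%). In the foxo RNAi libraries the shares were 0.242% in thorax (0.240 to 0.243%), 0.329% in gut (0.326 to 0.332%) and 0.189% in carcass (0.186 to 0.191%). The order of the tissues thus differed between the genotypes, with thorax highest in the control and gut highest with foxo RNAi. The foxo RNAi share was 0.755 times the control share in thorax, 1.39 times in gut and 0.829 times in carcass. These intervals cover counting error only, and each share rests on a single library.

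**Figure D1:**
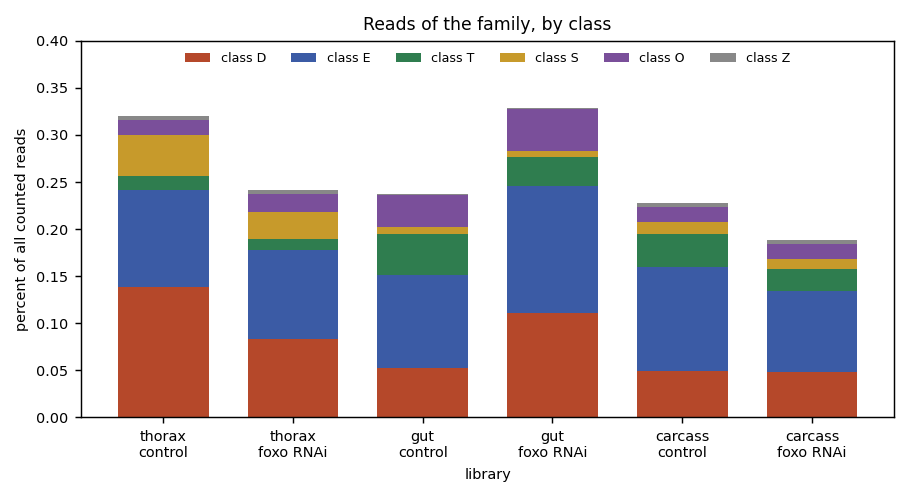
Bars show the percent of all counted reads that fell on each glutathione transferase class in each of the 6 libraries (stacked by class; 1 library per bar, so no error between flies). Class D made up 0.139% of reads in control thorax and 0.0834% with foxo RNAi, against 0.0523 and 0.111% in gut.

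Delta and epsilon genes together made up most of the family in each library. Class D held 0.139% of reads in control thorax and 0.0834% in foxo RNAi thorax. In gut the class D share was 0.0523% in the control and 0.111% with foxo RNAi. In carcass it was 0.0493% and 0.0478%. Most of the difference in the family total of thorax and gut therefore lay in class D. Class E held between 0.0868 and 0.135% of reads over the 6 libraries, with the highest share in foxo RNAi gut. Class T held 0.0145 and 0.0118% in thorax but 0.0433 and 0.0307% in gut and 0.0353 and 0.0229% in carcass. It was lower with foxo RNAi in each tissue, but in gut and carcass this lay in GstT4. Scaled by total count like the shares, GstT4 had log2 ratios of foxo RNAi over control of -0.73 in gut and -1.09 in carcass. GstT1, GstT2 and GstT3 had 0.55, 0.39 and 0.27 in gut and 0.16, 0.01 and 0.26 in carcass. Class S, which is GstS1 alone, had its highest shares in thorax, with 0.0438% in the control and 0.0286% with foxo RNAi.

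Within the family a few genes carried most of the reads. To compare genes of different length, levels are given as reads per kilobase of exon per 1000000 counted reads. GstD1, the delta enzyme known for its ability to break down DDT, was the most abundant member in all 6 libraries. Its level was 1453 in control thorax, 517 in control gut and 530 in control carcass, and 922, 1067 and 527 in the foxo RNAi libraries. Thorax and gut thus changed places between the genotypes, and carcass had nearly the same level in both. GstD1 held between 18.4 and 38.3% of the family's reads, and the 3 leading members of a library together held between 46.7 and 66.4%. At the other end, 5 to 7 members per library had a level under 1, and GstE14 had no read in control gut, where 3 counts would mean a level of at most 0.205.

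**Figure D2:**
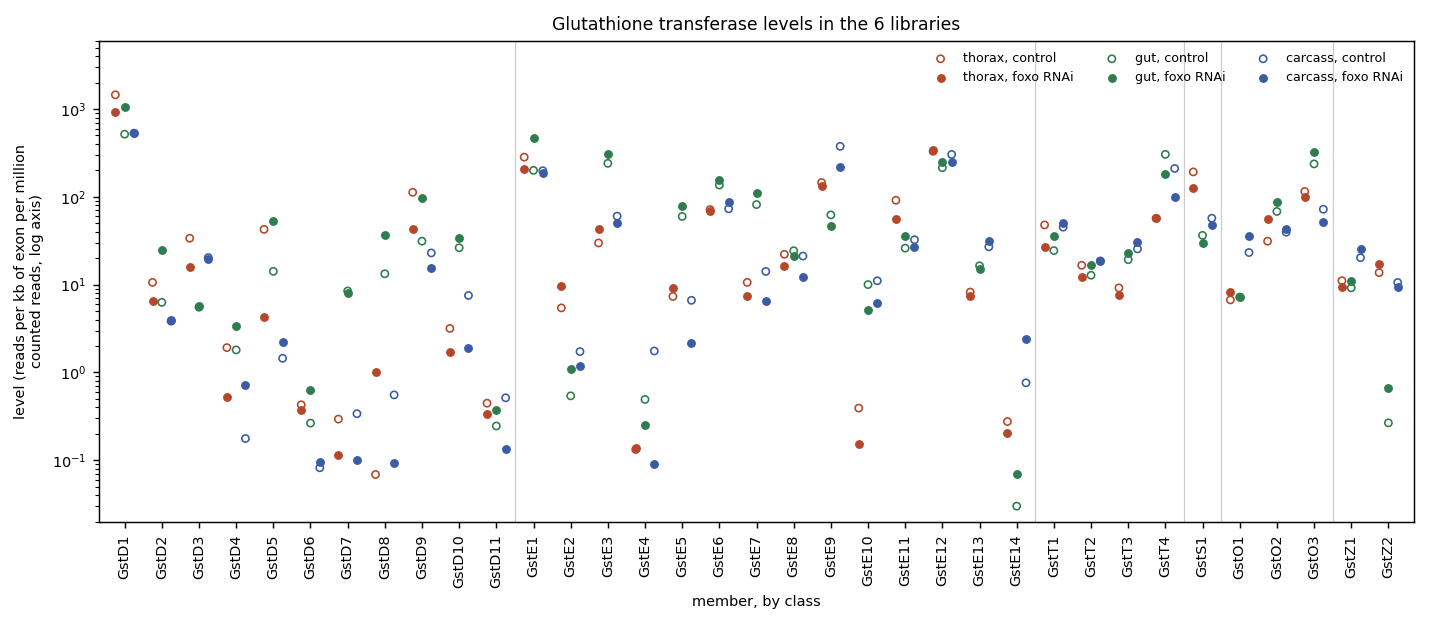
Points show the level of each member (reads per kb of exon per 1000000 counted reads, log axis) in each of the 6 libraries, filled by genotype and coloured by tissue. The highest level is 1453, of GstD1 in control thorax. GstE14 in control gut had 0 reads and is drawn at the bottom of the axis.

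Each class had its own leading gene. GstE12 led class E in both thorax libraries, with levels of 330 and 343, and in foxo RNAi carcass, with 247. GstE3 led in control gut with a level of 241, GstE1 in foxo RNAi gut with 467, and GstE9 in control carcass with 376. The lead of class E thus passed between 4 genes, whereas GstT4 led class T and GstO3 led class O in every library. GstT4 had levels of 57.0, 304 and 211 in control thorax, gut and carcass, and of 56.9, 184 and 98.7 with foxo RNAi. GstO3, of the class whose enzymes reduce dehydroascorbate and move thiol groups, had 115.2, 237 and 72.2 in the controls and 98.7, 326 and 51.8 with foxo RNAi. In class Z, whose mammalian member isomerises maleylacetoacetate in tyrosine breakdown, GstZ2 led in thorax with 13.7 and 17.1, and GstZ1 led in gut with 9.19 and 11.01 and in carcass with 20.3 and 25.2.

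The genes also sit together on the chromosomes. The class D genes form a single cluster on arm 3R (12364776 to 12385624, Release 6), in the order GstD10, GstD9 and GstD1 on the minus strand and then GstD2 to GstD8 and GstD11 on the plus strand; 7 of the 11 have a single exon. GstE1 to GstE10 lie within 18396638 to 18409835 on arm 2R, where 9 of the 10 have a single exon. The class O genes lie at 8518885 to 8524866 on arm 3L. Neighbours in these clusters are similar in sequence, and the sources used here do not say how reads that match several copies were handled, so the division of reads among the closest copies is uncertain.

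Tissue differences were tested over the 6 libraries with genotype as a covariate (edgeR's quasi-likelihood test, Benjamini-Hochberg adjustment over 9293 genes). With 2 libraries per tissue, 1 of each genotype, the fit had 2 residual degrees of freedom. Of the 35 members, 32 passed its low-count filter, and GstD6, GstD11 and GstE4 did not. Gut and thorax differed in 19 of these 32 (59.4%), against 54.6% of all genes tested. In 5 members the level was higher in thorax, where the background was 28.1%, and in 14 it was higher in gut, where the background was 26.5%. Gut and carcass differed in 20 members against a background of 43.4%, with 15 higher in gut (background 20.7%) and 5 higher in carcass (22.8%). Thorax and carcass differed in 11, against 41.2% of all genes, with 4 higher in thorax (21.9%) and 7 higher in carcass (19.3%). The median log2 difference over the 32 members was -1.02 for thorax minus gut and 1.19 for gut minus carcass, where the medians of all genes were -0.06 and -0.10.

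**Figure D3:**
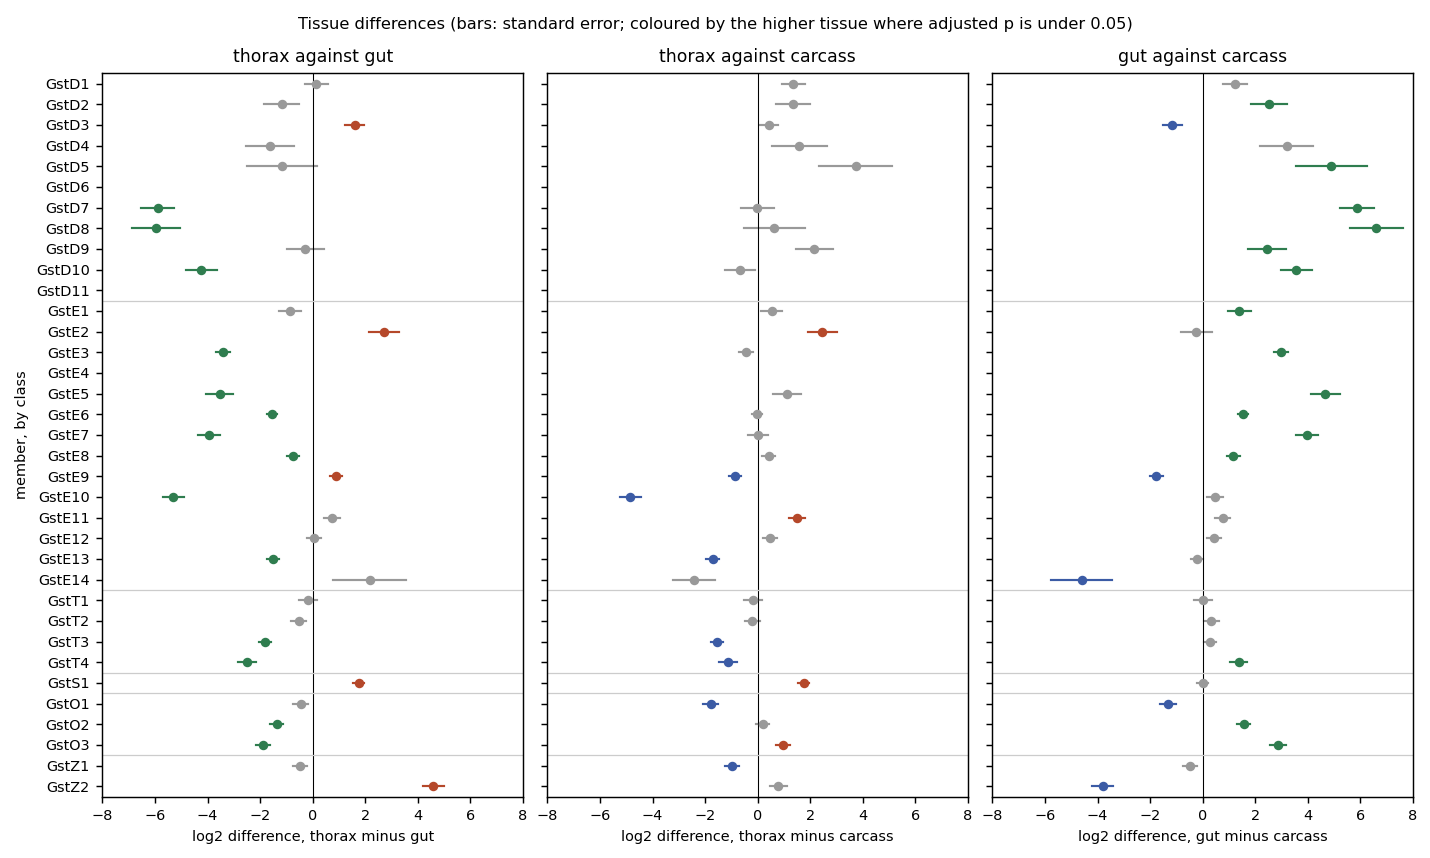
Points show the log2 difference of each tested member between a pair of tissues with its standard error, over all 6 libraries (edgeR), coloured by the higher tissue where the adjusted p is under 0.05. GstD7, GstD8, GstD10, GstE3, GstE5 and GstE7 lie far to the gut side in both comparisons with gut, and GstS1 and GstZ2 lie to the thorax side against gut.

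By class, 3 of the 9 delta genes tested were higher in gut than in thorax and 1 was lower. Over all genes these shares were 26.5% and 28.1%, so the delta count higher in gut is near that of all genes. The counts were 7 and 2 of 13 epsilon, 2 and 0 of 4 theta, and 2 and 0 of 3 omega genes. GstD7 had levels of 8.46 and 7.996 in control and foxo RNAi gut, and of 0.0996 to 0.339 in the other 4 libraries. It was higher in gut than in thorax by 5.89 on the log2 scale (SE 0.62, edgeR adjusted p = 0.00119) and than in carcass by 5.88 (SE 0.65, adjusted p = 0.00183). GstD8 had 13.3 and 37.0 in gut, at most 1.01 in thorax and at most 0.555 in carcass. Both genes, which are neighbours beyond GstD6, thus had far lower levels outside gut. GstD10, at the opposite end of the cluster, had 26.3 and 33.6 in gut, 3.17 and 1.73 in thorax and 7.53 and 1.89 in carcass. Its difference was -4.24 for thorax minus gut (SE 0.60, edgeR adjusted p = 0.00292) and 3.56 for gut minus carcass (SE 0.59, adjusted p = 0.00676).

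GstE3, GstE5 and GstE7 of the class E cluster were also highest in gut. GstE3 had levels of 241 and 311 in gut, 29.8 and 42.7 in thorax and 60.3 and 49.99 in carcass. GstE5 had 59.8 and 78.2 in gut and between 2.16 and 9.07 in the other libraries. GstE7 had 81.7 and 111 in gut and between 6.50 and 14.1 in the others. For each of these 3 genes the 2 gut libraries were above the other 4, and the differences from thorax were -3.42 for GstE3 (SE 0.28), -3.55 for GstE5 (SE 0.52) and -3.95 for GstE7 (SE 0.41), with edgeR adjusted p of 0.000633, 0.00325 and 0.00112. GstE6, which lies between GstE5 and GstE7, differed less, with levels of 136 and 157 in gut and 68.4 to 87.8 elsewhere. GstE4, between GstE3 and GstE5, was at 0.0898 to 1.75 in all 6 libraries, highest in control carcass, and was not tested. GstO3 was also higher in gut than in thorax, by 1.89 on the log2 scale (SE 0.28, edgeR adjusted p = 0.00335), and than in carcass by 2.86 (SE 0.29, adjusted p = 0.00141).

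GstE10 was low in thorax. It had levels of 0.392 and 0.154 in thorax, from 8 and 6 reads, against 10.0 and 5.14 in gut and 11.1 and 6.18 in carcass. Its difference was -5.31 for thorax minus gut (SE 0.40, edgeR adjusted p = 0.000537) and -4.84 for thorax minus carcass (SE 0.39, adjusted p = 0.00207). GstE10 runs opposite to GstE1, with 20 bases of exon in common; GstE1 had levels of 283 and 206 in the same thorax libraries. GstT4 and GstT3 were likewise lowest in thorax, with GstT4 lower than in gut by 2.51 on the log2 scale (SE 0.35, edgeR adjusted p = 0.00274) and GstT3 by 1.82 (SE 0.23, adjusted p = 0.00211). The other theta genes did not pass in any pair of tissues, with levels of 24.4 to 50.4 for GstT1 and 12.2 to 18.8 for GstT2, which shares 223 exonic bases with the oppositely transcribed CG12926.

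Thorax in turn held more GstS1 and, against gut, more GstZ2. GstS1 is the sigma enzyme of fly muscle that conjugates the lipid peroxidation product 4-hydroxynonenal. Its levels were 192 and 126 in thorax, 36.4 and 29.8 in gut and 57.1 and 48.2 in carcass. Both thorax libraries were above the other 4, by 1.75 on the log2 scale over gut (SE 0.22, edgeR adjusted p = 0.00195) and by 1.75 over carcass (SE 0.22, adjusted p = 0.00445). GstZ2 had 13.7 and 17.1 in thorax and 10.6 and 9.43 in carcass, but 0.266 and 0.665 in gut, from 9 and 22 reads. It was higher in thorax than in gut by 4.59 (SE 0.41, edgeR adjusted p = 0.000734). Its neighbour GstZ1 did not have this pattern, with 9.19 to 25.2 in all 6 libraries.

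Carcass had the highest levels of GstE9, GstE13 and GstO1, although GstE13 did not differ between carcass and gut by the test. GstE9 had levels of 376 and 220 in carcass, 146 and 132 in thorax and 62.3 and 46.1 in gut, and it was higher in carcass than in gut by 1.76 on the log2 scale (SE 0.24, edgeR adjusted p = 0.00374). GstE13 had 27.0 and 31.2 in carcass, 8.23 and 7.37 in thorax and 16.4 and 15.2 in gut. It was higher in carcass than in thorax by 1.72 (SE 0.24, edgeR adjusted p = 0.00592). For gut minus carcass its difference was -0.21 (SE 0.23, edgeR adjusted p = 0.499). The levels are scaled by total count and the fit by TMM factors, so the 2 can differ in size. GstO1 had 23.2 and 35.5 in carcass and 6.70 to 8.14 elsewhere, and was higher in carcass than in thorax by 1.78 (SE 0.29, edgeR adjusted p = 0.00855). GstE14, the epsilon gene required for ecdysteroid synthesis and also named noppera-bo, was low in every library, with its highest levels of 0.762 and 2.39 in carcass. Its 32 reads in foxo RNAi carcass stood beside a summed level of 7 ovary genes of 8210 CPM, against 12 reads and 3132 CPM in the control, and the part of those cells was not tested.

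By position in level, 9 of the 32 members had both gut libraries above the other 4, against 13.4% of all genes, while 5 had both thorax libraries on top (26.8% of all genes) and 7 both carcass libraries (31.9%). The other 11, among them GstD1, GstD5, GstD9 and GstE1, had overlapping tissues. Several tissue calls were lost when a library was left out. Such a fit keeps 1 library of that tissue, so a lost call need not be particular to the member. Calls over all genes also fell in each pair of tissues without a library of that pair. When each of the 6 was left out in turn, 12 of the 19 thorax and gut calls were made in all 6 fits, 10 of the 20 gut and carcass calls and 5 of the 11 thorax and carcass calls. GstD8 lost its call against thorax without foxo RNAi gut (edgeR adjusted p = 0.0679). GstD2, GstD5, GstD9 and GstE1, higher in gut than in carcass by 2.52, 4.89, 2.44 and 1.40, lost theirs without foxo RNAi gut or without either carcass library, with edgeR adjusted p up to 0.279. The number of members higher in thorax than in gut fell from 5 to 2 without control gut, 2 without foxo RNAi gut and 3 without foxo RNAi thorax. The number higher in thorax than in carcass fell from 4 to 2 without control thorax and 1 without foxo RNAi carcass, and that higher in carcass from 7 to 4 without control thorax, either gut library or foxo RNAi carcass. For gut against carcass, 9 rather than 15 members were higher in gut without foxo RNAi gut, and 2 rather than 5 were higher in carcass without either gut library or foxo RNAi carcass.

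The genotypes were then compared within each tissue. With 1 library on each side there is no test between genotypes, so a member was called only by size: at least 30 reads in both libraries together, a ratio of at least 2-fold after TMM scaling, and the bound of the exact 95% interval nearest to equality at least 1.5-fold. In thorax, 28 members had enough reads, 0 were called higher and 4 lower, where 6.28% of all genes were called, 3.56% higher and 2.72% lower. All 4 were delta genes, out of 7 delta genes with enough reads. The median log2 ratio was -0.43 over the 28 members and -1.16 over the 7 delta genes, against 0.00 over all genes. The ratio was under 1 in 22 of the 28.

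GstD5 (3R, 12375733 to 12376572, plus strand) differed most. It had 644 reads in control thorax and 124 in foxo RNAi thorax, or levels of 42.6 and 4.29, a ratio 10.5-fold lower (95% interval 8.68 to 12.9). GstD9 (3R, 12366163 to 12367564, minus strand) had 1592 and 1150 reads, with levels of 113 and 42.5, and was 2.81-fold lower (2.60 to 3.03). The foxo RNAi library was the deeper one, so near-equal counts correspond to a lower level. GstD3 was 2.24-fold lower (1.95 to 2.56), with 453 and 411 reads, and GstD4 was 3.83-fold lower (1.92 to 8.31), with 25 and 13. GstD1 had a ratio of 0.597 (0.587 to 0.608), GstD2 of 0.584 (0.464 to 0.737) and GstD10 of 0.512 (0.341 to 0.771), all on the same side but short of the rule. GstD8 went the other way, with 1 read in the control and 28 with foxo RNAi (ratio 9.36, 2.28 to 564), just under the read minimum. GstD8 was abundant in gut, and gut genes were higher in the same library, 8 of 10 by the size rule; the part of gut RNA in the GstD8 reads was not tested.

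Outside class D no thorax ratio passed the rule. GstS1 had a ratio of 0.615 (0.597 to 0.633), with 7873 and 9823 reads. GstT1 had 0.531 (0.484 to 0.584) and GstE11 0.580 (0.542 to 0.621). On the other side were GstO2 with 1.66 (1.55 to 1.79) and GstE2 with 1.65 (1.30 to 2.13). GstO2 shares 61 exonic bases with the oppositely transcribed gene se, and the sources used here do not say whether counting took strand into account, so its counts are uncertain. GstE12, the most abundant epsilon gene of thorax, had 0.979 (0.953 to 1.01). Markers of oenocytes, the lipid-handling cells of the abdomen, were also lower in foxo RNAi thorax, at 83.9 CPM against 438 CPM and in 3 of 3 genes, and fat body genes were higher in sum, at 18969 against 10924 CPM; their part in the family's ratios was not tested.

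**Figure D4:**
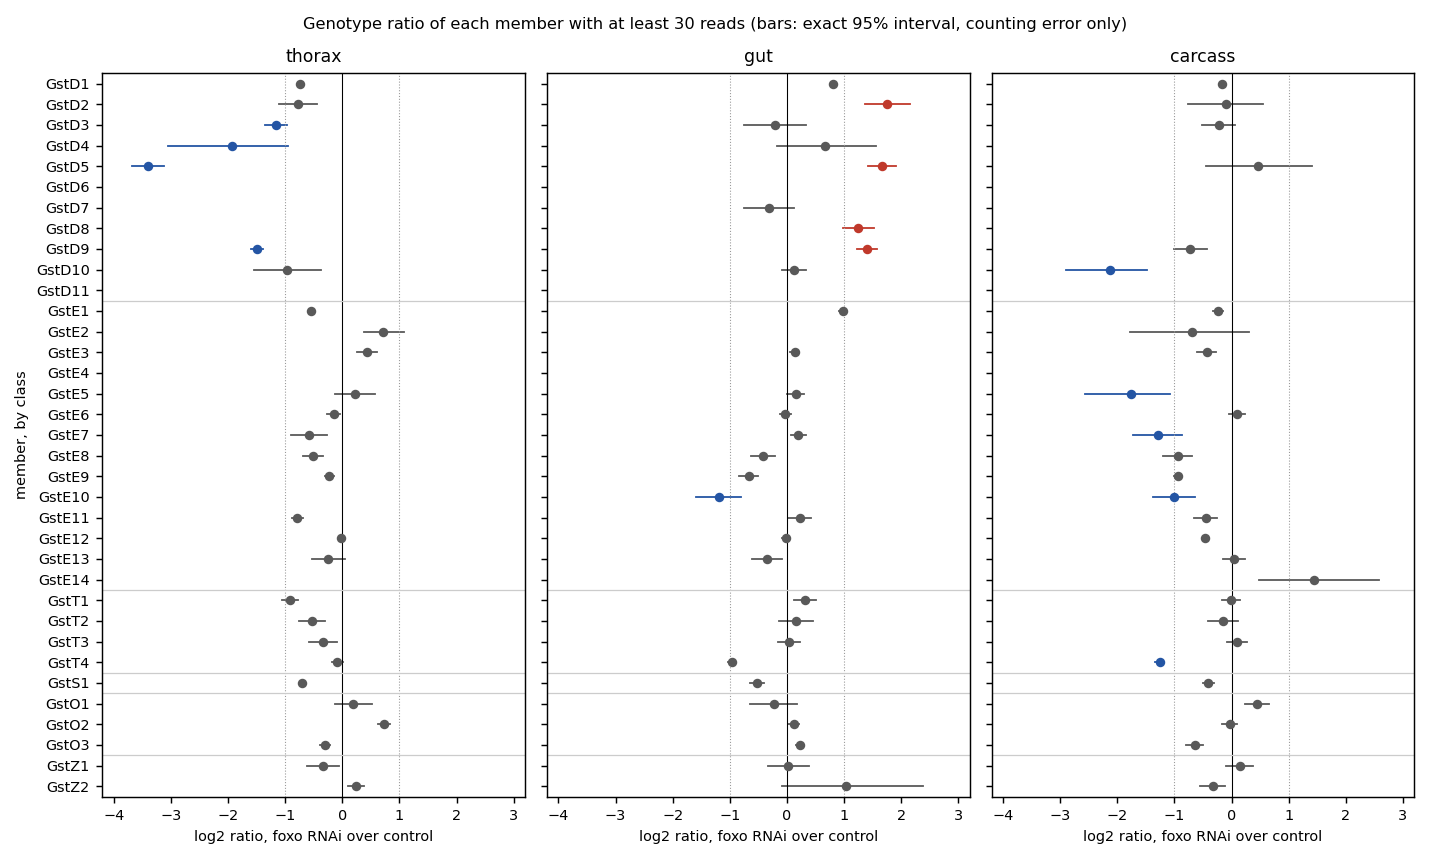
Points show the log2 ratio of foxo RNAi over control for each member with at least 30 reads in the tissue's 2 libraries, with the exact 95% interval (counting error only); blue and red mark members called lower and higher by size, and dotted lines mark 2-fold. The called members are delta genes on the lower side in thorax, mostly delta genes on the higher side in gut, and delta, epsilon and theta genes on the lower side in carcass.

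In gut the delta genes lay on the other side. Of 30 members with enough reads, 4 were called higher and 1 lower, where 5.4% of all genes were called, 2.22% higher and 3.18% lower. With scaling by total count, which raised the log2 ratios of all genes in gut by 0.24, 6 were higher and 0 lower. The 4 were GstD2, GstD5, GstD8 and GstD9, out of 9 delta genes with enough reads. The median log2 ratio of the delta genes was 0.81, against 0.13 over the 30 members and -0.01 over all genes.

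GstD2 (3R, 12371971 to 12372704, plus strand) had 67 reads in control gut and 260 in foxo RNAi gut, a ratio of 3.35 (95% interval 2.57 to 4.47). GstD5 had 173 and 630 reads, with levels of 14.2 and 52.7 and a ratio of 3.15 (2.67 to 3.76). GstD9 had 357 and 1089 reads, with levels of 31.3 and 97.4 and a ratio of 2.64 (2.35 to 2.99). Both GstD5 and GstD9 thus had opposite calls in thorax and gut. The share of all genes with such opposite calls was not counted. GstD8 (3R, 12380008 to 12380815, plus strand) had 156 and 425 reads, a ratio of 2.36 (1.96 to 2.86). GstD1, with 6334 and 12792 reads, had a ratio of 1.75 (1.70 to 1.81), and GstE1, with 2417 and 5519 reads, had 1.98 (1.89 to 2.08), both short of 2-fold; with scaling by total count their ratios were 2.06 and 2.33, which passed the rule. GstD3, GstD7 and GstD10 did not share the difference, with ratios of 0.868, 0.803 and 1.09 and intervals that include 1. GstD4, with 19 and 35 reads, had a ratio of 1.58 (0.890 to 2.96), an interval that also includes 1.

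The member called lower in gut was GstE10 (2R, 18396638 to 18398519, minus strand), with 165 and 83 reads, 2.28-fold lower (1.75 to 3.02). Its call ended when libraries were scaled by total count, where the log2 ratio was -0.96. GstT4 lay close to the rule, with 5398 and 3189 reads, 1.95-fold lower (1.87 to 2.04). Other abundant members of gut were closer to equality, with a ratio of 0.984 for GstE12 (0.944 to 1.02), 1.10 for GstE3 (1.04 to 1.15) and 1.17 for GstO3 (1.11 to 1.22). Summed gut genes were at 103186 CPM in the control and 79873 CPM with foxo RNAi, and 2 of 6 Malpighian tubule genes were lower, with a summed level of 202 and 131 CPM. The part of these cells in the family's ratios was not tested.

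In carcass, 29 members had enough reads, 0 were called higher and 5 lower, where 13.6% of all genes were called, 3.41% higher and 10.2% lower. With scaling by total count, which raised the log2 ratios of all genes in carcass by 0.17, 1 was higher, GstE14, and 4 were lower. The members' share called lower was 17.2%. The median log2 ratio was -0.33 over the 29 members and 0.06 over all genes, and the ratio was under 1 in 22. The 5 were 1 delta, 3 epsilon and 1 theta gene.

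GstT4 (X, 13404749 to 13409323, plus strand) rested on the most reads, 4012 in control carcass and 1599 in foxo RNAi carcass, with levels of 211 and 98.7, and was 2.39-fold lower (95% interval 2.26 to 2.54). GstD10 (3R, 12364776 to 12365735, minus strand) had 103 and 22 reads and was 4.39-fold lower (2.80 to 7.43). GstE5 (2R, 18404605 to 18405338, plus strand) had 76 and 21 reads, 3.39-fold lower (2.11 to 5.89). GstD10 and GstE5, like GstT4, are among the 15 members higher in gut than in carcass by the tissue test. GstE7, also among them, had 169 and 66 reads and was 2.43-fold lower (1.83 to 3.30). Others of the 15 were not called in carcass, such as GstE3 with a ratio of 0.739, GstO2 with 0.976 and GstE6 with 1.07. GstE4, with 23 reads and 1, was below the read minimum. Its levels were 0.492 and 0.251 in gut and 1.75 and 0.0898 in carcass. Gut genes were lower in the same carcass library, 7 of the 9 with enough reads, from 298 to 77.3 CPM in sum; the part of gut RNA in these ratios was not tested. GstE10, with 196 and 93 reads, was 2.00-fold lower (1.56 to 2.60), a call that ended under total-count scaling, at a log2 ratio of -0.84.

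Among the other abundant members of carcass, GstE9, the epsilon leader of control carcass, had 4629 and 2302 reads and a ratio of 0.521 (0.496 to 0.548). GstE12 had 0.723 (0.696 to 0.750), GstS1 0.752 (0.703 to 0.805) and GstD1 0.885 (0.854 to 0.916). GstO1 had 1.36 (1.18 to 1.57) and GstE14 had 2.73 (1.40 to 5.96), with its interval just outside the rule; with scaling by total count it passed, at 3.06 (1.57 to 6.69). Summed fat body genes were at 30396 CPM in control carcass and 15038 CPM with foxo RNAi, 4 of 5 of them lower by size, and their part in the family's ratios was not tested.

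**Figure D5:**
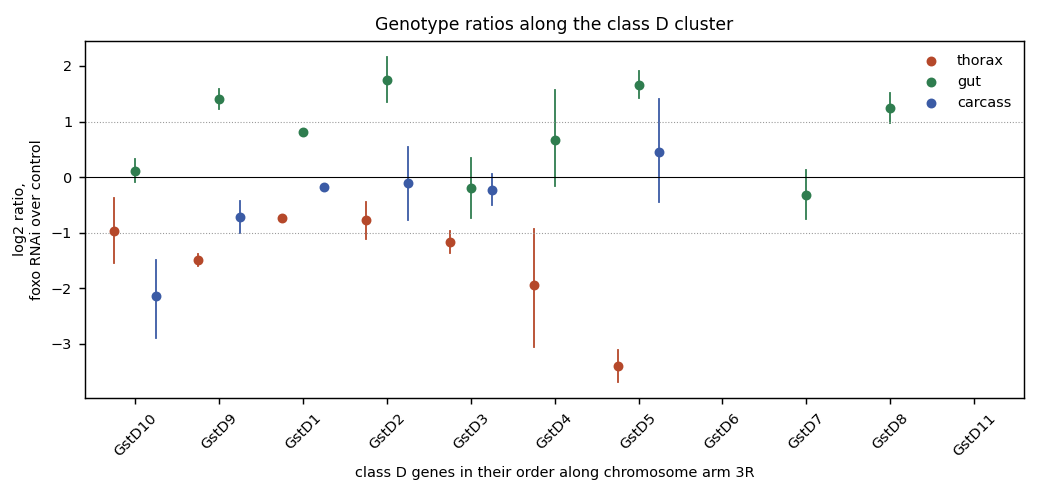
Points show the log2 ratio of foxo RNAi over control for the class D genes in their order along arm 3R, with exact 95% intervals (counting error only), in the 3 tissues; members with fewer than 30 reads are left out. Every thorax point is below 0, while GstD9, GstD1, GstD2, GstD5 and GstD8 have gut intervals above 0. GstD10, GstD3, GstD4 and GstD7 do not.

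Across tissues, 11 members were called in at least 1 tissue and 3 of them, GstD5, GstD9 and GstE10, in more than 1, out of 32 with enough reads in any tissue. Over all genes, 18.7% were called in at least 1 tissue and 3.58% in more than 1. Of 27 members with enough reads in both thorax and gut, 14 had a ratio under 1 in thorax and over 1 in gut (23.0% of all genes), 1 the reverse (23.6%), 8 a ratio under 1 in both (27.1%) and 4 over 1 in both (26.4%). Thorax and carcass had 16 of 27 members under 1 in both (24.0% of all genes), where 22 of 28 and 22 of 29 were under 1 in each tissue alone. A ratio under 1 in all 3 tissues was found for 6 of the 26 members with enough reads everywhere (13.2% of all genes), GstD3, GstE8, GstE9, GstE12, GstT4 and GstS1, and over 1 in all 3 for 0 (15.9%). With scaling by total count these were 4, without GstD3 and GstE12, and 2, GstO1 and GstO2. These differences between tissues have no replicates and were not tested.

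A genotype effect shared by the 3 tissues could be tested, with the tissues as blocks. None of the 32 members passed (edgeR's quasi-likelihood test, adjusted p under 0.05), and the background was 0.0% of 9293 genes. At an unadjusted p under 0.05 there were 5 members and 637 genes. The 5 were GstE10, lower with foxo RNAi by 1.14 on the log2 scale, GstT4 by 0.76, GstE8 by 0.61, GstE9 by 0.60 and GstS1 by 0.53. DESeq2's Wald test on the same design called 121 genes and 0 members. Without both thorax libraries, a choice made after seeing the gut genes in thorax, edgeR called 10 genes and 0 members.

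Genes that supply or steer the family gave no call by genotype. Of all genes, 6.28% were called in thorax, 5.4% in gut and 13.6% in carcass. With 4 genes with enough reads on each list, 0 calls is close to those shares. Gclc and Gclm, the subunits of the enzyme that limits glutathione synthesis, had ratios of 0.868 and 0.968 in thorax, 0.640 and 0.551 in gut and 0.739 and 0.587 in carcass. With Ggt-1, which breaks down glutathione, and MRP, a conjugate exporter, 4 of the 6 genes on the list had enough reads, and 0 were called in any tissue. Between tissues, 3 of these 4 genes and 3 of the 4 regulators below were higher in gut than in thorax (26.5% of all genes), and 0 were higher in thorax (28.1%; edgeR, adjusted p under 0.05). Against carcass, 2 and 3 were higher in gut (20.7%), and between thorax and carcass 1 synthesis or export gene was higher in carcass (19.3%) and no regulator differed by this test. The 4 regulators on the list were not called either: cnc, which encodes CncC, had ratios of 0.976, 0.764 and 0.788 in thorax, gut and carcass, and Keap1 had 1.00, 0.820 and 0.702. The partner gene maf-S had 0.954, 0.900 and 0.896, and ref(2)P, which encodes an autophagy adaptor that is itself a CncC target, had 0.967, 1.21 and 0.611. Transcript levels of a regulator do not measure its activity.

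Of 13 other redox enzymes with enough reads, 0 were called in thorax and in carcass, where 6.28 and 13.6% of all genes were called, and 1 higher and 1 lower in gut, where 5.4% were. The peroxiredoxin gene Prx2540-2 had 437 and 1152 reads in gut, a ratio of 2.29, though its near-identical neighbour Prx2540-1 had 0.787 from 64 and 58 reads and the split of reads between them is uncertain. The extracellular superoxide dismutase gene Sod3 had 1050 and 590 reads in gut, a ratio of 0.488. Among transferase relatives outside the named classes, Mgstl, the membrane-bound microsomal enzyme, was lower in carcass, with 750 and 345 reads and a ratio of 0.483. The relatives' list gave no other call in any tissue.

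Cytochrome P450s oxidise many foreign compounds, some of which glutathione transferases then conjugate. Of 16 with enough reads, 3 were higher and 2 lower in thorax (6.28% of all genes called), 3 higher and 5 lower in gut (5.4%), and 2 higher and 6 lower in carcass (13.6%). Cyp6a23 was higher in all 3 tissues, with 742 and 8945 reads in gut (ratio 10.5), 357 and 1978 in thorax (2.73) and 294 and 616 in carcass (2.19). Cyp4e3 was lower in all 3, with ratios of 0.347 in thorax, 0.384 in gut and 0.244 in carcass. Cyp6g1, known from DDT resistance, had ratios of 0.364 in gut and 0.386 in carcass but 1.15 in thorax. Cyp12d1-d had 0 reads in each control library and 61, 32 and 48 reads in foxo RNAi thorax, gut and carcass, whereas its near copy Cyp12d1-p had reads in all 6 libraries. The P450 calls thus went in both directions within each tissue. The called members of the transferase family were all lower in thorax and in carcass, while in gut 4 were higher and 1 lower. In carcass the calls over all genes also leaned lower, with 10.2% lower and 3.41% higher. With scaling by total count, GstE14 was called higher in carcass.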

How the data were processed

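Total RNA libraries were made with a stranded kit, per the labels' protocols, and single-end reads of 50 bases were mapped to Release 6 of the fly genome, per the series design text. The sources used here do not give the aligner, the counting tool, its strand setting or its treatment of reads with several matches. For each gene the authors deposited raw counts in whole numbers and RPKM values scaled by library total and by the whole genomic span of the gene, per the file headers and values. The counts were used here, and RPKM served as an alternative. For 1197 genes, none of them a member, a library had 0 counts but an RPKM above 0, for which no reason is given. The shares of all genes rest on the counts as they stand. Listed genes with 0 counts in every library, such as Prx5, PHGPx and Cyp6a2, could not be compared. The 35 members were chosen by symbol and matched the Ensembl 115 annotation at identical positions, from which exon lengths were taken. The members and all gene lists were chosen with earlier results of these data known.

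For the genotype ratio, counts of the 2 libraries of a tissue were scaled with TMM factors (edgeR 4.0.16, R 4.3.3), 0.5 was added, and exact Clopper-Pearson 95% intervals were computed (scipy 1.17.1). They cover counting error only, and PCR copies are counted as separate reads. The floor for 0 reads was 3 counts. Tissues, and the genotype term over all tissues, were tested with edgeR's quasi-likelihood fit on tissue and genotype. That fit used TMM factors, filterByExpr and Benjamini-Hochberg adjusted p under 0.05, whereas levels were scaled by total count. The common biological coefficient of variation was 0.296. In the main fit, p-values rest on the spread left after tissue and a shared genotype difference are taken out. That spread includes genotype differences that vary by tissue. It holds no replicate libraries of the same genotype and tissue. The scripts were tested on simulated data. Full values were given for those called by genotype, for the leading member of each class and for opposite calls. Other genes came from lists, as did markers of cell types. Members discussed for their tissue levels or for a ratio close to the rule were chosen after their values were seen. Alternatives were other scalings (total count, DESeq2 1.42.0 size factors), read minima of 10, 100 and none, a 1.5-fold rule, RPKM, DESeq2's Wald test, no count filter, other model terms, the libraries of 2 tissues only, and leaving out each library. No sequences are printed.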

Additional observations from a re-analysis of the deposited data

Results flagged for a closer look

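GstD5 and GstD9 were called by size in opposite directions in thorax and in gut. They were 2 of the 27 members with enough reads in both tissues. The share of all genes with opposite calls was not counted. In any direction, 3.58% of all genes were called in more than 1 tissue. The log2 ratio of foxo RNAi over control for GstD5 was -3.39 in thorax and 1.66 in gut. For GstD9 it was -1.49 in thorax and 1.40 in gut. With 1 library per genotype and tissue, the difference between the tissues was not tested. In carcass the same genes had ratios of 1.37 and 0.607, and neither was called.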

How the results depend on the processing

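Leaving out GstD1 moved the ratio of the family's share of reads from 0.755 to 0.829 in thorax, from 1.39 to 1.24 in gut and from 0.829 to 0.788 in carcass, with no change of direction. Scaling by total count in place of TMM shifted all genes by 0.09, 0.24 and 0.17 on the log2 scale in thorax, gut and carcass. It moved the members' median log2 ratio from 0.13 to 0.36 in gut and from -0.33 to -0.16 in carcass, gave 6 members higher and 0 lower in gut, against 4 and 1, and 1 higher and 4 lower in carcass, against 0 and 5. It also changed the sign of 9 ratios, none of them called, of GstD2, GstD3, GstE6, GstE12, GstO1, GstO2, GstT1 and GstT2. Deposited RPKM gave 7 higher and 0 lower in gut and 1 higher in carcass. A read minimum of 10, or none, gave 1 member higher in thorax. A 1.5-fold rule gave 2 higher and 11 lower in thorax, 3 lower in gut, and 1 higher and 9 lower in carcass. On the higher side in gut, GstD1 (ratio 1.75) and GstE1 (1.98) joined the 4 members called by the main rule. These settings change the scaling, the read minimum or the rule on the same counts, except for RPKM. The shares of all genes called by genotype under them are not given here. The member counts therefore show how calls depend on the settings and are not results about the family. The RPKM alternative kept the read minimum and the 2-fold limit but dropped the interval bound, so it differs by more than scaling. DESeq2's Wald test and the fit with no genotype term each gave 7 members higher in thorax than in carcass in place of 4. The fit on the libraries of those 2 tissues gave 4 higher in carcass in place of 7. Over all genes these fits called 4408, 3957 and 3063 between thorax and carcass, against 3827 in the main fit. The cause of these differences was not tested. With each library left out in turn, 2 to 5 members were higher in thorax than in gut, 1 to 6 higher in thorax and 4 to 6 higher in carcass between those tissues, and 9 to 17 higher in gut and 2 to 5 higher in carcass between the last pair. Under the alternatives run no called value changed its direction, and 0 members were called in each fit of the shared genotype term. Over all pairings of a single member's value with an alternative, 85 lost the call and 616 stayed on their side of the threshold. The labels carry no replicate numbers, and with 1 library per genotype and tissue no paired analysis was possible within a tissue. The shared genotype term sets the genotypes side by side within tissues, with tissue as the block. Depth limits members with few reads, such as GstD6, GstD11 and GstE4, and no genotype difference within a tissue has a replicate check.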
